A study of Mus musculus with 10 samples.

Results

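Foxl1 negative mesenchymal cells of the mouse intestine were set against intestinal epithelium by RNA sequencing, in 7 of the 10 libraries of the series. The libraries were chosen by their titles. They were 3 titled Foxl1 negative, 2 titled Lgr5 positive and 2 titled Differentiated epithelium. Foxl1 is a forkhead transcription factor of telocytes, mesenchymal cells beneath the gut epithelium. The negative cells came from mice of mixed strain with Foxl1Cre and the Cre reporter Rosa-mTmG, and a gate on the absence of Foxl1 labelling does not select 1 cell type. The Lgr5 positive cells came from mice of mixed strain whose genotype is spelled Lr5-EGFP-IRES CreERT2, 1 library labelled male and 1 female. The differentiated epithelium came from wild type C57BL/6J mice. No age or treatment is given, and the tissue reads intestine mesenchyme on the epithelial libraries too. The 3 negative libraries share 1 sequencing run identifier, which no epithelial library carries, so run, strain, genotype and cell group cannot be told apart. The design text names 3 mice for the mesenchymal sorts but ties no animal to a library, so p-values measure the spread between these libraries, which may be partly technical.

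The gut mesenchyme holds fibroblasts, which lay down collagens and proteoglycans, and smooth muscle, pericytes, vessels and immune cells. The epithelium is a sheet of cells joined by E-cadherin and desmosomes, renewed from Lgr5 positive stem cells at the crypt base and made up mostly of enterocytes, which absorb sugars, peptides and fat. Heat shock proteins are chaperones that bind unfolded proteins, and immediate early genes encode transcription factors and signalling regulators switched on within minutes of a stimulus. Both classes are known to respond to the enzymatic and mechanical dissociation of tissue.

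The negative libraries were sparse. They held 1311205, 6319671 and 13440838 counts for replicates 1, 2 and 3, against 46415489 and 99628145 in Lgr5 positive cells and 79516088 and 80910717 in differentiated epithelium. At least 1 count was found for 1992, 4097 and 5966 genes in the negative libraries, against 15397 to 16237 genes in the epithelial ones. At the depth of negative replicate 1, the number of genes computed was 1992, 3483 and 5314 in the negative libraries, against 11663 to 13185 in the epithelial ones. Of 885 genes at 100 CPM (counts scaled to a common library size that was adjusted by the trimmed mean of M values, TMM) or more in all 4 epithelial libraries, 58.1%, 30.6% and 21.1% had no count in negative replicates 1, 2 and 3. CPM so scaled do not add up to the same total in each library. Over all genes they came to 883574, 891212 and 615096 in negative replicates 1, 2 and 3. The totals were 823510 and 811118 in Lgr5 positive cells and 1896330 and 1760160 in differentiated epithelium, so a summed CPM is not a share of its library. The negative libraries also shared little with each other, with Spearman coefficients of 0.213 to 0.346 across genes, against 0.978 for the Lgr5 positive pair and 0.984 for the differentiated pair. Replicates 2 and 3 had 2481 detected genes in common, 60.6% of those in replicate 2 and 41.6% of those in replicate 3. A count of 0 allows up to 3 counts, which came to 2.02, 0.423 and 0.137 CPM in negative replicates 1, 2 and 3, and to 0.0244 to 0.0715 CPM in the epithelial libraries. These limits cover counting error only.

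**Figure D1:**
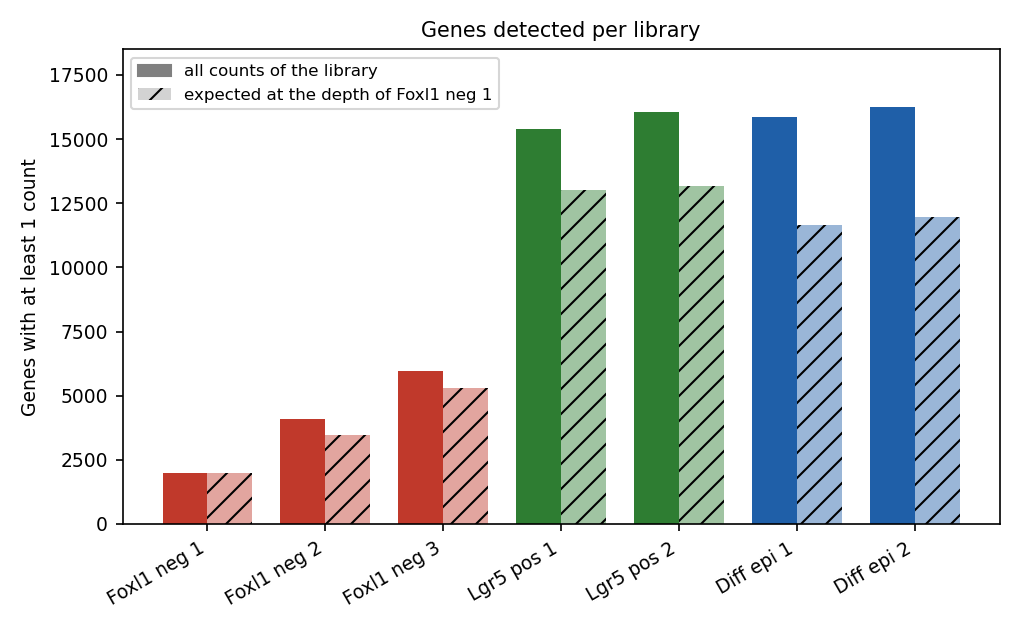
Genes with at least 1 count in each library, as counted (solid) and as computed for the depth of Foxl1 negative replicate 1 (hatched). The negative libraries hold 1992 to 5966 genes, and the epithelial libraries 11663 or more even at the lower depth.

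Of 14252 genes tested, 140 rose and 6622 fell in Foxl1 negative cells against the mean of both epithelial groups (edgeR quasi-likelihood test, Benjamini-Hochberg adjusted p under 0.05). These are 0.982% and 46.5% of the genes tested, and the median log2 fold change over all of them was -5.50. Against Lgr5 positive cells alone 47 genes rose (0.33%) and 6771 fell (47.5%). Against differentiated epithelium alone 23 rose (0.161%) and 6405 fell (44.9%). The 3 comparisons share the negative libraries. The genes called lower were mostly genes without counts. Of the 6622, 5807 (87.7%) had no count in any negative library, and 22 had a count in all 3. Genes counted in all 3 negative libraries numbered 752, of which 56 rose and 22 fell, with a median log2 fold change of 0.27. All 3 negative libraries lay above all 4 epithelial ones for 52 genes (0.365%) and below them for 8016 (56.2%). The number of genes called higher depended on single libraries. It was 16 to 19 without any 1 epithelial library, and 344, 290 and 347 without negative replicates 1, 2 and 3.

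The 15 genes with the largest gap between the lowest negative and the highest epithelial library, among 376 genes at 10 CPM or more in all 3 negative libraries, all passed the test. Because this choice required the groups to be apart, their separation is a description. Decorin (Dcn, on mm9 chr10:96942134-96980796), a proteoglycan that binds collagen fibrils, had 3311, 5763 and 3333 CPM in the negative libraries, against 0 and 0.155 CPM in Lgr5 positive cells and 0 and 0.0435 CPM in differentiated epithelium. Its log2 fold change was 16.48 ± 2.56 (SE, edgeR adjusted p = 0.00434). The negative replicates differed among themselves by less than 1 doubling, while Lgr5 positive cells held 19 counts and differentiated epithelium 2.

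Col3a1 (mm9 chr1:45368383-45406551), the fibrillar collagen of loose connective tissue, had 4879, 3963 and 1661 CPM in the negative libraries, against no count in either Lgr5 positive library and 0.0238 and 0.239 CPM in differentiated epithelium (edgeR adjusted p = 0.00275). Gelsolin (Gsn), which cuts actin filaments, had 5279, 9791 and 10730 CPM in the negative libraries, against 11.4 and 7.98 CPM in Lgr5 positive cells and 137 and 86.8 CPM in differentiated epithelium. Its log2 fold change was 8.03 ± 0.73 (edgeR adjusted p = 0.00265). For both genes the groups were far apart, and for Gsn the differentiated libraries lay above the Lgr5 positive ones.

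Fabp4, a fatty acid carrier of adipocytes and capillaries, had 532, 1038 and 212 CPM in the negative libraries, against 0 to 0.0244 CPM over the 4 epithelial ones. Lipoprotein lipase (Lpl), which frees fatty acids from lipoproteins, had 452, 84.6 and 488 CPM, against 0.0477 to 0.16 CPM. Both stood above epithelium in every negative library, with log2 fold changes of 15.27 ± 2.22 for Fabp4 (edgeR adjusted p = 0.00356) and 11.79 ± 1.37 for Lpl (0.00265). Apoe, a lipid carrier of macrophages, glia and liver, had 3317, 244 and 853 CPM in the negative libraries, against 3.24 to 8.02 CPM in epithelium. Complement genes followed, with Serping1, the inhibitor of the C1 complex, at 482, 709 and 488 CPM in the negative libraries, against 0.071 to 0.301 CPM in epithelium. C1s, a protease of that complex, had 366, 132 and 739 CPM, against 0 to 0.244 CPM. C3, the central protein of the cascade, had 91 CPM in negative replicate 1, 1240 in replicate 2 and 587 in replicate 3, against 0.525 to 2 CPM. Serping1, C1s and C3 rose, with log2 fold changes of 11.64 ± 1.24, 13.21 ± 2.11 and 9.17 ± 1.51 in that order.

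Matrix Gla protein (Mgp), an inhibitor of calcification, had 16.2, 80.5 and 134 CPM in the negative libraries and no count in any epithelial one. It rose (edgeR adjusted p = 0.00622). Its mean over the negative libraries, 77.1 CPM, was 6861 times the limit of 3 counts over the 4 epithelial libraries together. That limit covers counting error only. Igj, the joining chain of secreted IgM and IgA and a plasma cell gene, had 1600, 275 and 10100 CPM in the negative libraries, against 0.213 to 6.11 CPM in epithelium, and Ms4a4d 104, 817 and 80.7 CPM, against 0 to 0.0238 CPM. Genes of wide expression closed the 15. Radixin (Rdx), which ties actin to the cell membrane, had 92.3, 268 and 109 CPM in the negative libraries, against 1.01 to 4.74 CPM, and Dtx3, an E3 ubiquitin ligase, 136, 69.5 and 103 CPM, against 2.15 to 3.48 CPM. Of the 15, 13 kept their call under all 21 alternatives. Dtx3 lost it without Lgr5 positive replicate 1 (adjusted p = 0.0519), and Rdx without any 1 epithelial library (0.0508 to 0.0743). The noncoding RNA Malat1, retained in the nucleus, was the second highest gene of negative replicate 1, with 10852, 5077 and 1932 CPM in the negative libraries, against 30 to 148 CPM in epithelium (edgeR adjusted p = 0.00534).

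**Figure D2:**
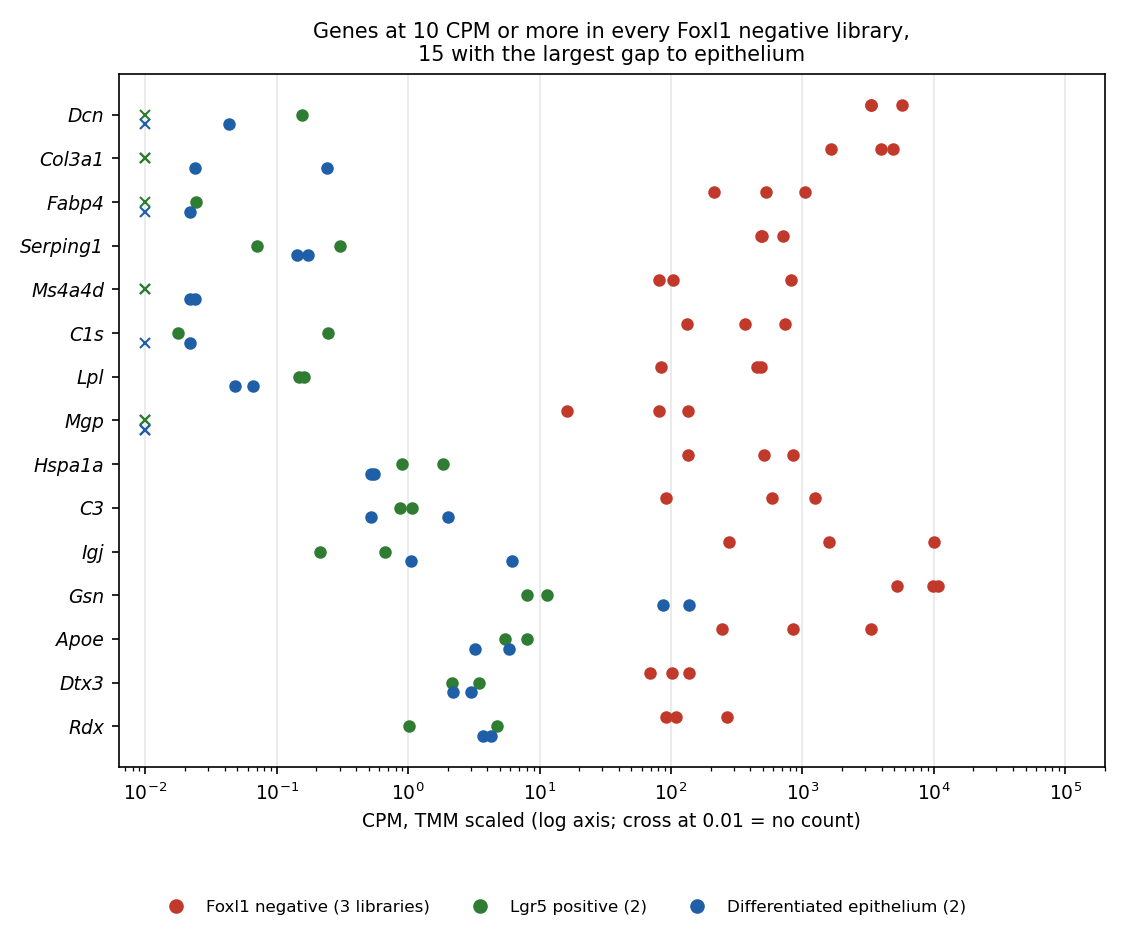
Level of the 15 genes with the largest gap, in CPM on a log axis, 1 point per library, Foxl1 negative above Lgr5 positive above differentiated epithelium within each gene. Crosses mark libraries without a count. Dcn lies at 3311 CPM or more in every negative library and at or below 0.155 CPM in every epithelial one.

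Hspa1a was the only stress gene among these 15, and its promoter and those of 3 related stress genes are shown because heat shock factors bind repeats of GAA and its inverse TTC. The first 150 bases upstream of the start are given from RefSeq on GRCm38.p6, 5′ to 3′ on the strand of the gene, with matches to GAANNTTC or TTCNNGAA in capitals. Hspa1a lies at chr17:34972157-34972306 on the minus strand, Hspa1b at chr17:34959239-34959388 on the minus strand, Hspb1 at chr5:135887769-135887918 on the plus strand and Jun at chr4:95052223-95052372 on the minus strand.
Hspa1a: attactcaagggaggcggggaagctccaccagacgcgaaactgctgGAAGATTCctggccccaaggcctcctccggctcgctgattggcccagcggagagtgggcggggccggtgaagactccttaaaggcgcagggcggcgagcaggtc
Hspa1b: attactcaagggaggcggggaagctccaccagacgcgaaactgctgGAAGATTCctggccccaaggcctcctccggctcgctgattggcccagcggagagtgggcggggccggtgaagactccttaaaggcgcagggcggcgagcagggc
Hspb1: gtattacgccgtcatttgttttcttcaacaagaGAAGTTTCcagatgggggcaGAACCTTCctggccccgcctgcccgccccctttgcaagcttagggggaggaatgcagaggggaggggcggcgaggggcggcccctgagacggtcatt
Jun: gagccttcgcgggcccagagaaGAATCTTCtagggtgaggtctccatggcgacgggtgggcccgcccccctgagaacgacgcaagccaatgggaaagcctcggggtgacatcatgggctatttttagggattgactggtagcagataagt

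The Hspa1a and Hspa1b stretches were identical at 149 of 150 bases, each with 1 match that begins 104 bases before the start. Hspb1 had 2 matches, beginning 117 and 97 bases before the start, and Jun had 1, at 128 bases. Both patterns are their own reverse complement, so a match lies on both strands. Over windows of 250 bases before and 50 after the start, 15.1% of 32851 RefSeq promoters held such a match. Of the 10 heat shock, chaperone and immediate early genes counted in all 3 negative libraries, 7 matched the promoter table by symbol and 2 of these, Hspa1a and Jun, held one. TGACGTCA, the cyclic AMP response element, was in none of the 7 windows and in 1.79% of all promoters. TATAAA, read on both strands, was in 1 of the 7 (Junb) and in 13.6% of all promoters. Hspa1b, Hspb1, Hspb8 and Klf2 were added after their values were seen. Klf2 held no match to the heat shock patterns, and the only match of Hspb8 began after the start. A match is a run of letters, not a bound site.

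A few heat shock genes were high in the negative libraries and near 0 in epithelium, and the others were not. Of 25 tested, 3 rose and 2 fell, while 0.982% and 46.5% of all genes did, with a median log2 fold change of -0.21, against -5.50 over all genes. The median was 0.31 with DESeq2's size factors and -1.04 under TMMwsp scaling, a form of TMM made for counts with many zeros. Hspa1a alone rose without negative replicate 2 or any 1 epithelial library, and 12 fell without negative replicate 3. Hspa1a, the inducible cytosolic Hsp70 chaperone, had 134, 510 and 847 CPM in the negative libraries, against 1.83 and 0.904 CPM in Lgr5 positive cells and 0.549 and 0.522 CPM in differentiated epithelium. Every negative library was at least 73.4 times the highest epithelial one. The log2 fold change was 9.18 ± 1.26 (edgeR adjusted p = 0.00302), and it passed against Lgr5 positive cells alone (8.51, adjusted p = 0.00904) and differentiated epithelium alone (9.85, adjusted p = 0.00694). Its near-identical neighbour Hspa1b had 0, 265 and 1195 CPM in the negative libraries, against 8.68 and 7.68 CPM in Lgr5 positive cells and 2.48 and 1.04 CPM in differentiated epithelium (adjusted p = 0.0797), and without replicate 1 it passed (0.00362). Reads of the pair may be split or shared between them by the authors' counting, so each gene's own level is uncertain.

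The small heat shock proteins Hspb1 and Hspb8, which hold unfolded proteins in solution, rose with only part of the negative libraries carrying them. Hspb1 had 0, 37.8 and 47.9 CPM in the negative libraries, against 0 to 0.238 CPM in epithelium (log2 fold change 8.84 ± 2.25, edgeR adjusted p = 0.0238). Hspb8 had 4.04, 118 and 0 CPM, against 0 to 0.0887 CPM (10.50 ± 3.23, adjusted p = 0.0452). Both calls were lost without any 1 epithelial library, with adjusted p of 0.0605 to 0.149 for Hspb1 and 0.16 to 0.197 for Hspb8. Cryab, another small heat shock protein and a muscle gene, was counted in negative replicate 2 only, at 146 CPM, against 0 to 0.228 CPM in epithelium (adjusted p = 0.096, and 0.0171 without replicate 3).

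The chaperones that every cell uses were abundant in epithelium too. Hspa8, the constitutive Hsp70, had 591, 75 and 231 CPM in the negative libraries, against 493 and 307 CPM in Lgr5 positive cells and 319 and 237 CPM in differentiated epithelium (log2 fold change -0.16 ± 0.97, edgeR adjusted p = 0.936). Hsp90ab1, the constitutive Hsp90, had 2.7, 4.94 and 1386 CPM in the negative libraries, against 2636 and 2058 CPM in Lgr5 positive cells and 685 and 450 CPM in differentiated epithelium (adjusted p = 0.716). Its negative replicates 1 and 2 lay below all epithelial libraries and replicate 3 among them, and without replicate 3 it fell (adjusted p = 0.00395). Hsp90aa1, also counted in all 3 negative libraries, did not pass (log2 fold change 0.075). The 2 that fell were Dnajb4, a co-chaperone of Hsp70, and Bag3, which links Hsp70 to autophagy. Neither had a count in a negative library, while epithelium held 9.9 to 26.4 CPM of Dnajb4 and 35.2 to 94.1 CPM of Bag3.

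Immediate early genes went both ways. Of 39 tested, 2 rose and 10 fell, while 0.982% and 46.5% of all genes did, with a median log2 fold change of 0.39, against -5.50 over all genes. Whether the list moved as a set was not tested. Jun, a subunit of the transcription factor AP-1, had 3417, 803 and 191 CPM in the negative libraries, against 105 and 122 CPM in Lgr5 positive cells and 127 and 112 CPM in differentiated epithelium. It rose by 3.66 ± 1.16 on the log2 scale (edgeR adjusted p = 0.0484). The lowest negative library was 1.5 times the highest epithelial one, and the highest was replicate 1. The call was lost under 11 of 21 alternatives, among them leaving out negative replicate 1 (adjusted p = 0.0891), replicate 2 (0.0561) or any 1 epithelial library (0.184 to 0.196). Klf2, a transcription factor of endothelium and resting lymphocytes, had 0, 100 and 153 CPM in the negative libraries, against 0.236 to 0.405 CPM in epithelium (8.06 ± 2.25, adjusted p = 0.0324). That call too was lost without any 1 epithelial library (0.156 to 0.176).

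Many immediate early genes were present in epithelium, above all in the differentiated libraries. Junb, an AP-1 subunit, had 0.674, 209 and 74.3 CPM in the negative libraries, against 8.75 and 4.07 CPM in Lgr5 positive cells and 125 and 39.3 CPM in differentiated epithelium (edgeR adjusted p = 0.396). Zfp36, which speeds the decay of cytokine mRNAs, had 725, 395 and 160 CPM in the negative libraries, against 32 and 21.6 CPM in Lgr5 positive cells and 460 and 327 CPM in differentiated epithelium. It passed against Lgr5 positive cells alone (log2 fold change 3.99 ± 1.23, edgeR adjusted p = 0.0438) and not against differentiated epithelium alone (0.12 ± 1.03, 0.96). Without replicate 3 it passed against both groups together (0.0462). The difference between the epithelial groups was not tested. Fos, the partner of Jun in AP-1, had 0, 641 and 373 CPM in the negative libraries, against 52.4 and 14.6 CPM in Lgr5 positive cells and 221 and 269 CPM in differentiated epithelium (adjusted p = 0.549). Dusp1, a phosphatase of MAP kinases, had 0, 417 and 436 CPM in the negative libraries, against 4.63 and 3.91 CPM in Lgr5 positive cells and 10.4 and 19.2 CPM in differentiated epithelium (adjusted p = 0.126). Without negative replicate 1, where neither gene had a count, Dusp1 passed (adjusted p = 0.00301). Mcl1, a survival protein of the Bcl2 family, and Jund, a further AP-1 subunit, were counted in all 7 libraries and did not pass (adjusted p = 0.653 and 0.155). Egr1, a zinc finger factor, went the other way, with 0, 0.282 and 0 CPM in the negative libraries, against 9.72 to 30.4 CPM in epithelium (log2 fold change -7.64 ± 1.68, adjusted p = 0.0138). The list's median was -0.17 under TMMwsp scaling and -0.24, -1.77 and -5.02 without negative replicates 1, 2 and 3. None of the list rose without any 1 epithelial library, and 3, 1 and 4 rose without negative replicates 1, 2 and 3.

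**Figure D3:**
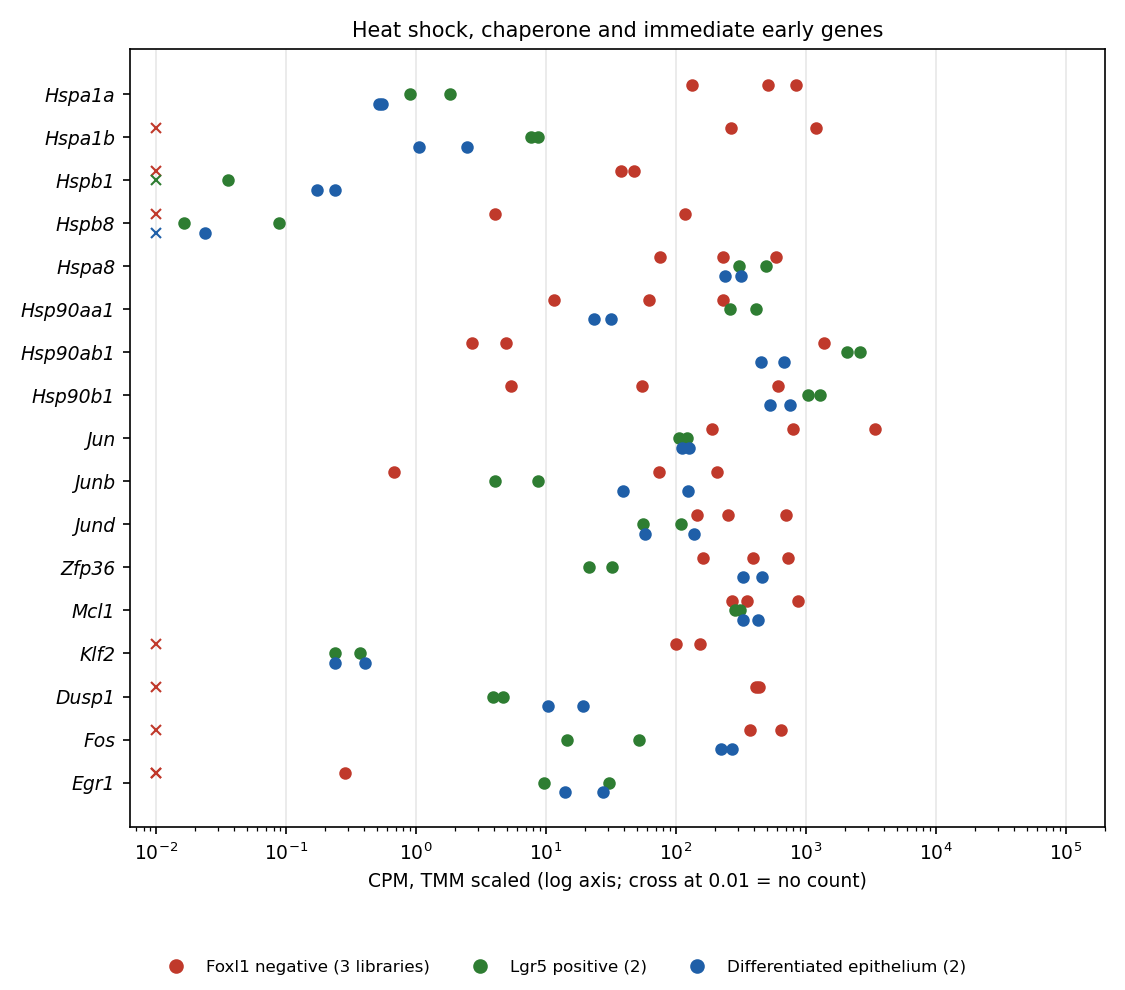
Level of 17 heat shock, chaperone and immediate early genes, in CPM on a log axis, 1 point per library, Foxl1 negative above Lgr5 positive above differentiated epithelium within each gene. Crosses mark libraries without a count. Hspa1a alone shows all 3 negative libraries far to the right of all 4 epithelial ones, while Hspa8 and Mcl1 overlap.

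No gene of the other stress lists rose against both epithelial groups together in the edgeR test. One oxidative and metal stress gene was higher at an unadjusted p under 0.05 and 3 were in DESeq2, with 0 for the other lists in both. The unfolded protein and integrated stress response list had 6 of 16 fall, the oxidative and metal stress list 3 of 16 and the p53 and apoptosis list 3 of 14, while 46.5% of all genes tested fell. The ferritin light chain Ftl1, which stores iron, did not pass against both groups together, with 3503, 1603 and 588 CPM in the negative libraries, against 151 and 71.9 CPM in Lgr5 positive cells and 1361 and 598 CPM in differentiated epithelium (log2 fold change 2.52 ± 0.90, edgeR adjusted p = 0.0719, and 0.0386 without replicate 3). It rose against Lgr5 positive cells alone (4.09 ± 1.28, adjusted p = 0.0462) and did not pass against differentiated epithelium alone (0.95 ± 1.09, adjusted p = 0.586). Ddit3, a factor of the integrated stress response, had no count in a negative library, against 9.98 to 51.1 CPM in epithelium. The metallothionein Mt2 had none, against 12.3 to 17.5 CPM, while its relative Mt1 had 456, 245 and 56.5 CPM in the negative libraries, against 48.7 to 190 CPM. Levels of Ddit3 and Mt2 in epithelium lay above the 3-count limit of every negative library. That limit covers counting error only, so these zeros are weak evidence of absence. Of 885 genes at 100 CPM or more in all epithelial libraries, 58.1%, 30.6% and 21.1% also had no count in negative replicates 1, 2 and 3. Of all tested genes with no count in a negative library, 88.1% were called lower.

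Of 23 fibroblast genes tested, 17 rose and none fell, against 0.982% of all genes that rose, with a median log2 fold change of 12.33. Members near 0 in epithelium reached the count minimum of the test only through the negative libraries, so they could hardly fall. Their share beside that of all genes is therefore a description. The same holds for such members of the matrix, smooth muscle, pericyte and endothelial lists below. Against Lgr5 positive cells alone 6 rose (0.33% of all genes), and against differentiated epithelium alone 3 (0.161%). The 17 included Col3a1, Dcn and Gsn above. Sparc, a protein of the collagen matrix, had 0, 3992 and 524 CPM in the negative libraries, against 0 to 0.109 CPM in epithelium (edgeR adjusted p = 0.0403). Col1a1, the main chain of type I collagen, had 0, 613 and 64.5 CPM, against 0 to 0.087 CPM (adjusted p = 0.0311). Pdgfra, a receptor of platelet derived growth factor, had 814, 865 and 2.47 CPM, against 0 to 0.122 CPM (adjusted p = 0.0198). Pi16, a marker of adventitial fibroblasts, had 1845, 0 and 76.7 CPM, against 0.00814 to 0.071 CPM (log2 fold change 13.99 ± 3.93, adjusted p = 0.0334). Only 7 list members had a count in all 3 negative libraries, and replicate 1 had a count for 9 of 24. The count of 17 was 3 or 4 without any 1 epithelial library, 18, 10 and 9 without negative replicates 1, 2 and 3, and 3 with log2(FPKM + 1), the log2 of the deposited FPKM plus 1. The calls of Sparc, Col1a1 and Pi16 were lost without any 1 epithelial library, with adjusted p from 0.0752 for Sparc to 0.172 for Pi16 and Col1a1. Pdgfra lost its call without 3 of the 4 (0.0669 to 0.106). One fibroblast list member, Fbln1, was highest in differentiated epithelium, at 136, 10.4 and 113 CPM in the negative libraries, against 35.4 and 30.1 CPM in Lgr5 positive cells and 1364 and 826 CPM in differentiated epithelium.

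Matrix and basement membrane genes were carried by negative replicates 2 and 3. Of 17 tested, 9 rose and 1 fell, while 0.982% and 46.5% of all genes did, with a median log2 fold change of 7.91. Against Lgr5 positive cells alone and against differentiated epithelium alone, none of them rose. Fibrillin 1 (Fbn1), the core of elastic microfibrils, had 0, 568 and 705 CPM in the negative libraries, against 0 to 0.0244 CPM in epithelium (edgeR adjusted p = 0.0216). Nidogen (Nid1), a linker of basement membranes, had 0, 856 and 833 CPM, against 0 to 0.0218 CPM (adjusted p = 0.029). For both genes replicate 1 had no count, so the groups overlap there. Summed over the list, negative replicate 1 held 29.6 CPM, replicate 2 held 6351 and replicate 3 held 4910, against 30.3 to 48.2 CPM in epithelium. None of the list, Fbn1 and Nid1 included, rose without any 1 epithelial library (adjusted p of 0.0665 to 0.125 for Fbn1 and 0.0593 to 0.149 for Nid1). Without negative replicates 1, 2 and 3 the number that rose was 12, 5 and 4.

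Each negative library carried genes of different other cell types. Smooth muscle genes were highest in replicate 2, where Myh11, the heavy chain of smooth muscle myosin, had 2276 CPM, with 121 CPM in replicate 1, no count in replicate 3 and at most 0.142 CPM in epithelium (edgeR adjusted p = 0.0527, and 0.00888 without replicate 3). Acta2, smooth muscle actin, had 0, 1868 and 0.0458 CPM in the negative libraries and was not tested, since too few of its libraries reached the count minimum. Of 13 smooth muscle genes tested 2 rose, Myl9 (adjusted p = 0.0365) and Des (0.0378), and 3 fell. Of 12 endothelial genes 2 rose and 2 fell. Kdr rose with a count in all 3 negative libraries (130 CPM in replicate 3), and Plvap in replicates 2 and 3 (329 and 156 CPM). In replicate 1 the whole endothelial list summed to 2.7 CPM over 4 members with a count, so Kdr was near the floor there. Of 4 pericyte genes tested 2 rose, Pdgfrb and Des, and 1 fell. B cell genes belonged to replicate 3, where Cd79a had 560 and Ms4a1 381 CPM, with at most 0.141 CPM of each in replicates 1 and 2. The calls of Myl9, Des, Kdr, Plvap and Pdgfrb were lost without any 1 epithelial library, with adjusted p from 0.0901 for Des to 0.202 for Plvap. Plvap also lost its call without negative replicate 2 (0.0504). Cd79a and Ms4a1 did not pass, except without replicate 2 (0.047 and 0.0414), and of 9 B and plasma cell genes tested only Igj rose. Of 13 T and natural killer cell genes 2 fell, of 13 macrophage and dendritic cell genes 2, of 4 glial and neuronal genes 3, of 4 genes of interstitial cells of Cajal 1 and of 4 pancreatic acinar genes 1, and none of these rose. Of 3 adipocyte genes Fabp4 rose, and of 2 mesothelial and 2 mast cell and granulocyte genes none passed in either direction. At an unadjusted p under 0.05, 1 gene each of the T cell, macrophage and interstitial cell lists was higher, and DESeq2 called 1 pancreatic gene higher.

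Genes of liver and red blood cells set negative replicate 1 apart. Summed over 16 hepatocyte genes the negative libraries held 61980, 596 and 0.32 CPM, against 26.5 to 55.7 CPM in epithelium, with a count for 15 of the 16 in replicate 1. Albumin (Alb) was its highest gene, at 39966 CPM, with 143 and 0.275 CPM in replicates 2 and 3 and at most 0.811 CPM in epithelium (edgeR adjusted p = 0.0368, 0.0639 without replicate 1 and 0.137 to 0.177 without any 1 epithelial library). Summed erythroid genes, mostly the haemoglobin genes Hba-a1 and Hba-a2, whose counts were identical, came to 21570, 83.5 and 0.0915 CPM, against 0.0715 to 0.957 CPM. Their part in any other result was not tested. Without replicate 1, 344 genes rose in all, 18 of them fibroblast genes, 3 heat shock genes and 3 immediate early genes.

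**Figure D4:**
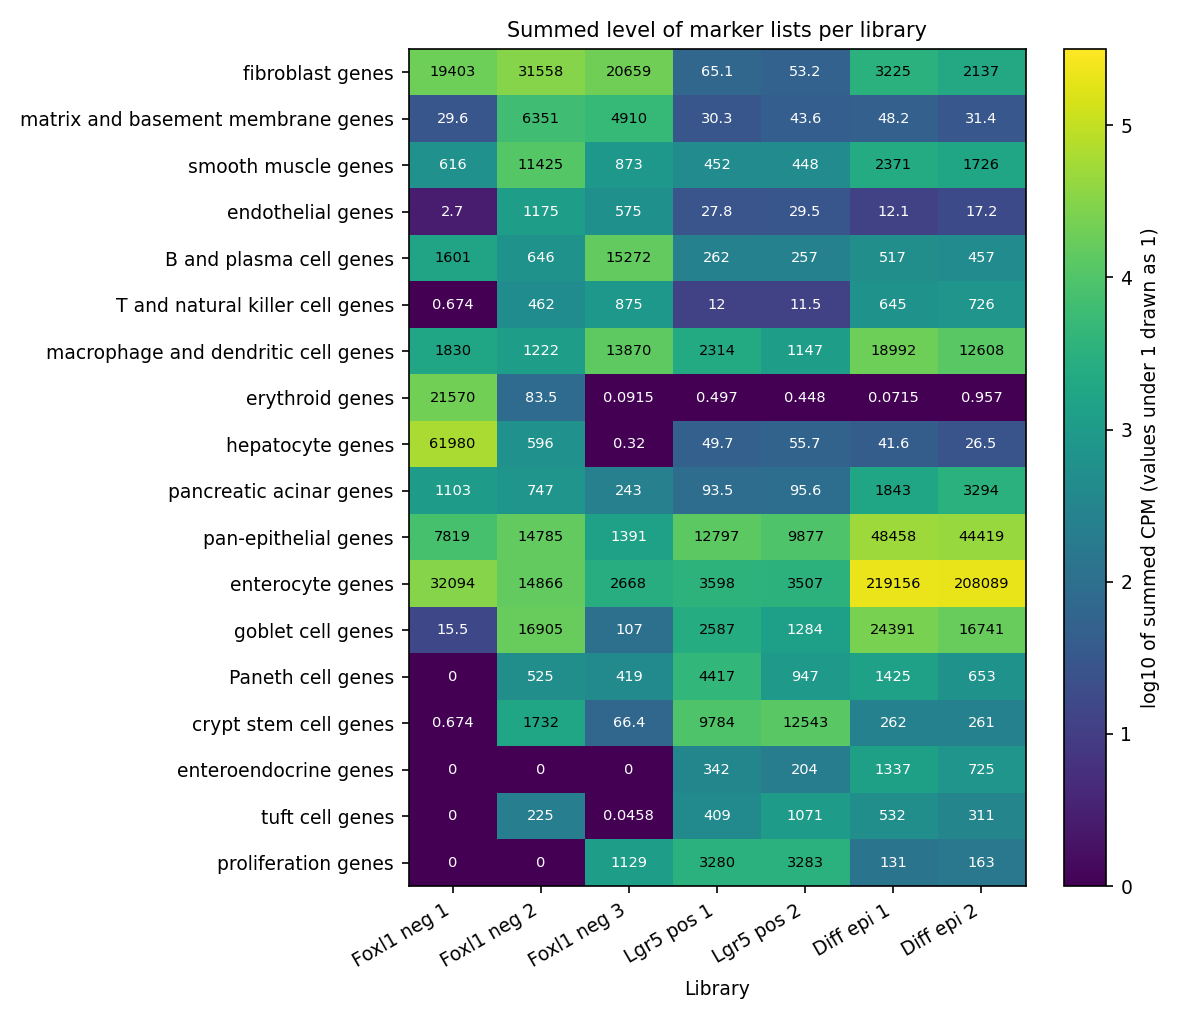
Summed level of 18 marker lists per library, in CPM as printed, coloured by log10. The TMM-scaled CPM of all genes do not add up to the same total in each library. Hepatocyte and erythroid genes stand out in Foxl1 negative replicate 1, smooth muscle and goblet cell genes in replicate 2 and B and plasma cell genes in replicate 3, while fibroblast genes are at 19403 CPM or more in each.

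Checked against their markers, the negative libraries held fibroblast transcripts that epithelium nearly lacked, and epithelial transcripts too. Foxl1 itself had no count in any negative library, 1 count in differentiated epithelium and none in Lgr5 positive cells. Lgr5, a receptor of crypt base stem cells, had no count in a negative library, against 237 and 325 CPM in Lgr5 positive cells and 0.382 and 0.457 CPM in differentiated epithelium. The same kind of limit over the 3 negative libraries together covers counting error only and rests mostly on replicate 3. By it, Lgr5 was at least 2848-fold lower in Foxl1 negative cells than the mean of Lgr5 positive cells. Against both epithelial groups together its adjusted p was 0.0111, and 0.0513 to 0.0793 without any 1 epithelial library. Apoa4, an apolipoprotein that enterocytes secrete with dietary fat, had 4071, 2610 and 77.8 CPM in the negative libraries, against 69.5 and 88.6 CPM in Lgr5 positive cells and 59678 and 42009 CPM in differentiated epithelium. Its levels lay between those of the epithelial groups (log2 fold change 0.17 ± 1.17 against their mean, edgeR adjusted p = 0.947), with replicate 3 as low as the Lgr5 positive cells.

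Enterocyte genes were detected in every negative library, with summed CPM below differentiated epithelium. These CPM are TMM scaled, and over all genes they do not add up to the same total in each library. Of 23 members, 13 had a count in all 3 negative libraries, and their sum was 32094, 14866 and 2668 CPM, against 3598 and 3507 CPM in Lgr5 positive cells and 219156 and 208089 CPM in differentiated epithelium. None rose in the edgeR test, at an unadjusted p under 0.05 or in limma-voom, 1 did in DESeq2, and 7 fell, while 46.5% of all genes did, with a median log2 fold change of -3.35. Slc5a1, the intestinal sodium and glucose transporter, had 142, 103 and 25.2 CPM in the negative libraries, against 187 and 196 CPM in Lgr5 positive cells and 11395 and 9967 CPM in differentiated epithelium. It fell by 3.99 ± 0.88 on the log2 scale (edgeR adjusted p = 0.0128). Anpep, a brush border peptidase, had 59.3, 297 and 160 CPM in the negative libraries, against 124 and 129 CPM in Lgr5 positive cells and 25051 and 23472 CPM in differentiated epithelium (log2 fold change -3.35 ± 0.77, adjusted p = 0.0154). For Slc5a1 all negative libraries lay below the Lgr5 positive ones, and for Anpep they lay on both sides of them. The sugar transporters Slc2a2 and Slc2a5 had at most 0.141 CPM in a negative library, against 682 to 1159 CPM in differentiated epithelium. Apoa1, Fabp1 and Rbp2, which carry lipid or retinol, were highest in replicate 1 among the negative libraries, at 7167, 7230 and 3056 CPM. Apoa1 had 7167, 3436 and 803 CPM in the negative libraries, against 102 and 106 CPM in Lgr5 positive cells and 30137 and 20193 CPM in differentiated epithelium, and rose against Lgr5 positive cells alone (log2 fold change 5.19 ± 1.24, adjusted p = 0.0182). Slc5a1 lost its call without either Lgr5 positive library (0.0509 each), and Anpep without 3 of the 4 epithelial libraries (0.0538 to 0.0593), as did Slc2a2 (0.0513 to 0.0671). The count of 7 was 1 to 5 without any 1 epithelial library and 9, 13 and 7 without negative replicates 1, 2 and 3. Negative replicate 1 also had the highest sum of hepatocyte genes, at 61980 CPM. The source of the transcripts of the enterocyte list was not tested.

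Of 20 pan-epithelial genes tested 5 fell, Cdh1, Cdx1, Cdx2, Klf5 and Vil1, while 46.5% of all genes tested fell. Of the list, 8 had a count in all 3 negative libraries and 2 in none, and its sum was 7819, 14785 and 1391 CPM in the negative libraries, against 12797 and 9877 CPM in Lgr5 positive cells and 48458 and 44419 CPM in differentiated epithelium. Cdh1, encoding E-cadherin, had 1 count over the negative libraries (0.0458 CPM in replicate 3), against 1653 and 1227 CPM in Lgr5 positive cells and 1269 and 1461 CPM in differentiated epithelium. It fell by 15.55 ± 1.58 on the log2 scale (edgeR adjusted p = 0.00265). The desmosome gene Dsp, one of the 10 with the largest gap below epithelium and not of the list, had no count in a negative library, against 510 to 796 CPM in epithelium. By the limit of 3 counts over the negative libraries together, it was at least 5967-fold lower in Foxl1 negative cells than the epithelial mean. That limit covers counting error only and rests mostly on replicate 3. Cdx2, the transcription factor that sets intestinal identity, had none, against 191 to 375 CPM (adjusted p = 0.00696, and 0.0502 to 0.0525 without 3 of the 4 epithelial libraries). Epcam and the keratin Krt8 were present. Epcam, an adhesion molecule of epithelia, had 340, 976 and 77.4 CPM in the negative libraries, against 1655 and 1691 CPM in Lgr5 positive cells and 3299 and 3079 CPM in differentiated epithelium (log2 fold change -2.31 ± 1.03, adjusted p = 0.132, and 0.0375 without replicate 2). Krt8 had 0.674, 3152 and 91.9 CPM, against 438 to 4316 CPM, with replicate 2 within the range of epithelium. No gene of the list rose in edgeR, at an unadjusted p under 0.05 or in DESeq2 or limma-voom.

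**Figure D5:**
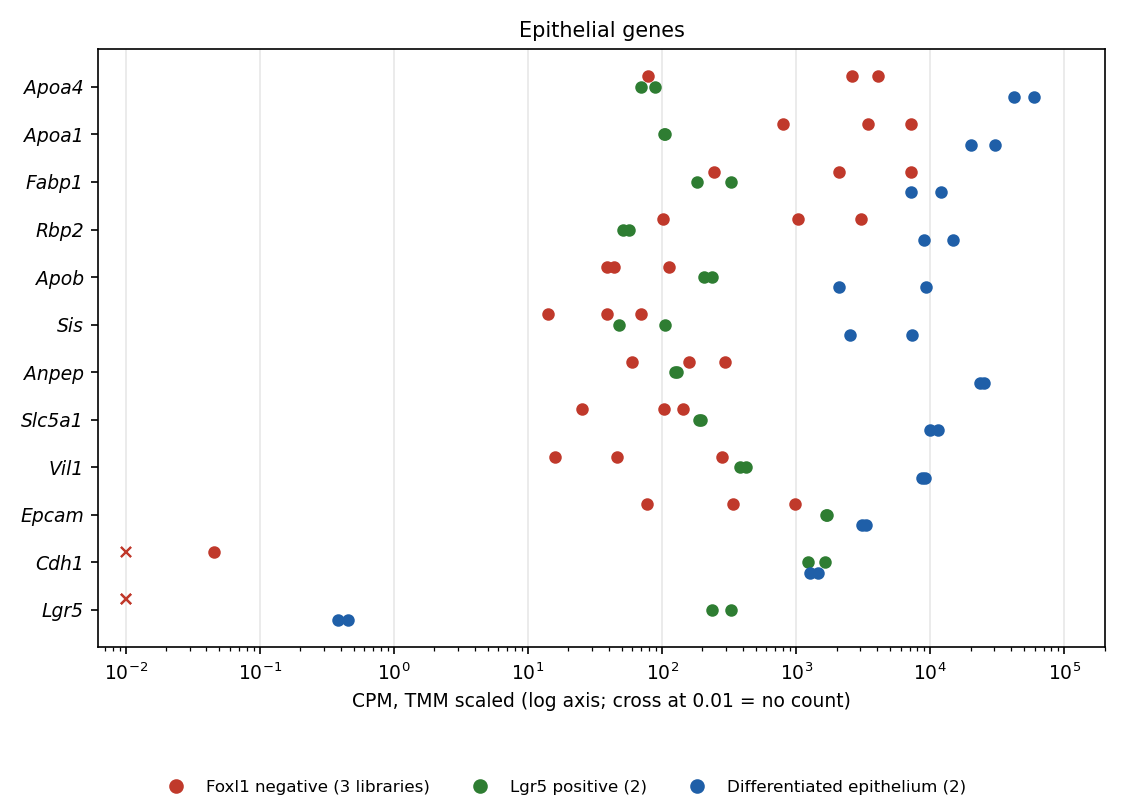
Level of 12 epithelial genes, in CPM on a log axis, 1 point per library, Foxl1 negative above Lgr5 positive above differentiated epithelium within each gene. Crosses mark libraries without a count. Apoa4 is spread from 77.8 to 4071 CPM in the negative libraries, between the epithelial groups, while Cdh1 and Lgr5 are at or next to 0.

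Genes of the rarer epithelial lineages and of proliferation were absent or uneven between the negative libraries. All 15 enteroendocrine genes fell, with no count in a negative library. Of 10 tuft cell genes 9 fell, of 18 crypt stem cell genes 10 and of 19 proliferation genes 12. Olfm4, a secreted protein of crypt base cells, had no count in a negative library, against 4346 and 6023 CPM in Lgr5 positive cells and 11.3 and 23.9 CPM in differentiated epithelium. These counts stand beside 5807 of the 6588 tested genes with no count in a negative library (88.1%) that were called lower. Goblet cell genes were high in negative replicate 2 alone, where Zg16, a lectin of goblet cell granules, had 9314 CPM, with 0.674 and 56.7 CPM in replicates 1 and 3. The list held 15.5, 16905 and 107 CPM in the negative libraries, against 2587 and 1284 CPM in Lgr5 positive cells and 24391 and 16741 CPM in differentiated epithelium. Crypt stem cell genes summed to 0.674, 1732 and 66.4 CPM in the negative libraries. In Lgr5 positive cells they held 9784 and 12543 CPM, and in differentiated epithelium 262 and 261 CPM. Proliferation genes had counts in negative replicate 3 alone, at 1129 CPM in sum, against 3280 and 3283 CPM in Lgr5 positive cells. In differentiated epithelium they held 131 and 163 CPM. Paneth cell genes summed to 0, 525 and 419 CPM, against 653 to 4417 CPM in epithelium.

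Of the 22 genes that fell although counted in all 3 negative libraries, several were epithelial. Pigr, which carries IgA across epithelium, had 303, 149 and 592 CPM in the negative libraries, against 9008 and 4667 CPM in Lgr5 positive cells and 14349 and 18112 CPM in differentiated epithelium (log2 fold change -4.92 ± 0.83, edgeR adjusted p = 0.00527). Vil1, encoding the microvillus protein villin, had 280, 46.4 and 15.9 CPM, against 382 to 9131 CPM (-4.05 ± 1.27, adjusted p = 0.0481). All negative libraries lay below all epithelial ones for both genes. Pigr kept its call under 20 of 21 alternatives. Vil1 lost it under 13, leaving out negative replicate 2 (0.0925), replicate 3 (0.0534) or any 1 epithelial library among them (0.0989 to 0.109). The sodium pump subunit Atp1b1 and the ribosomal protein gene Rpl37a were among the 22 too. Rpl37a had 4.72, 2.4 and 4.71 CPM in the negative libraries, against 48.3 and 41.5 CPM in Lgr5 positive cells. In differentiated epithelium it had 3.72 and 1.94 CPM, and it did not pass against that group alone (log2 fold change 0.47, edgeR adjusted p = 0.564). Of 25 cytosolic ribosomal protein genes 4 fell, and of 20 respiratory chain genes, 14 of them counted in all 3 negative libraries, none passed the edgeR test in either direction, while DESeq2 called 1 higher and limma-voom 2 lower.

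Wnt ligands, R-spondins and the ligand-processing genes Wls and Porcn, a set on which crypt stem cells depend, were sporadic in the negative libraries. Of 10 tested none rose in the edgeR test or in DESeq2, 1 did at an unadjusted p under 0.05 and 1 in limma-voom, and 6 fell (46.5% of all genes), each with at most 1 count over the negative libraries. Rspo3, a Wnt amplifier made by mesenchyme, had 416 CPM in negative replicate 1 and no count in replicates 2 and 3, against 0 to 0.0977 CPM in epithelium, and was not tested either, for the same reason as Acta2. Wnt11 had 385 CPM in negative replicate 2, 0.674 CPM in replicate 1 and no count in replicate 3, against 0 to 0.286 CPM in epithelium (edgeR adjusted p = 0.0791, and 0.0171 without replicate 3). Of 7 BMP and hedgehog genes tested 5 fell, each without a count in a negative library, as 88.1% of all tested genes without such a count did, and none rose, also not in DESeq2, limma-voom or at an unadjusted p under 0.05. Bmp3 and Bmp7, both growth factors, and the hedgehog pathway genes Smo and Ptch1 had no count in a negative library. In bulk samples of sorted cells, fewer cells of a type and less RNA per cell cannot be told apart.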

How the data were processed

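RNA from sorted intestinal cells was sequenced, and the authors deposited a table of raw counts for 24082 transcripts and a table of FPKM values (scaled to transcript length and library size). The submitters' processing notes name CASAVA 1.8.2, edgeR and mm9, with the aligner, the counter and its strand setting not given in the sources used. The deposited counts were reduced to 18594 genes by the authors' mark of 1 transcript per gene, and the count table's other deposited columns served only as that mark. Libraries were grouped by title.

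The counts were fitted with edgeR 4.0.16 in R 4.3.3 (TMM scaling, filterByExpr by group, robust quasi-likelihood test) in 1 model of 3 groups and 7 libraries, with 4 residual degrees of freedom. Foxl1 negative cells were set against the mean of both epithelial groups and against each one. P-values were Benjamini-Hochberg adjusted over all genes tested, with a threshold of 0.05. An exact rank-sum test of 3 against 4 libraries cannot go below a two-sided p of 0.0571, so none is given. A count of 0 was bounded by 3 counts. The scripts were tested on simulated data without the excess zeros of the negative libraries. That test does not show how reliable calls are in such sparse libraries. Alternatives were other scalings, filters and transcripts, DESeq2 1.42.0, limma 3.58.1 (voom, and log2 of the deposited FPKM plus 1 or 0.1), all 10 libraries, pooled epithelium, a replicate block and each library left out. TMM over genes counted in all 7 libraries was added after seeing the data.

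Genes named were the label markers, the immediate early, heat shock and chaperone genes counted in all 3 negative libraries, and up to 4 genes of each other stress list. They also took in the 15 genes with the largest gap above epithelium and the 10 with the largest gap below it. Each list gave up to 4 members with the smallest p and up to 2 with the highest level, and each negative library its 5 highest genes. The gap and level rules skipped predicted genes and antigen receptor segments. Hspb8, Klf2, Hspa1b, Dusp1, Fos, Egr1, Cryab, Pdgfra, Sparc, Col1a1, Fbln1, Acta2, Vil1, Epcam, Rbp2, Pigr, Atp1b1 and Rpl37a were named after their values were seen. The members and lists were chosen with earlier results of these data known. Only some of the genes that this rule names are reported here.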

Additional observations from a re-analysis of the deposited data

How the results depend on the processing

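The count of genes higher than epithelium depended on the processing, and the cause was not tested. From 140 it moved to 435 with DESeq2, 424 with all 10 libraries, 88 with the epithelial libraries as 1 group, 26 with log2(FPKM + 1), 24 with log2(FPKM + 0.1) and 20 among genes counted in every negative library, where 2 were lower. Leaving out 1 library gave 16 to 347 higher and 5518 to 8956 lower. Against Lgr5 positive cells 47 became 371 with DESeq2, 184 with limma-voom, 110 with all 10 libraries, 29 and 30 with FPKM plus 1 and plus 0.1, 2 among genes counted in every negative library and 5 to 307 without 1 library. In that reduced set edgeR called 0 lower, with 41 at an unadjusted p under 0.05, 47 in DESeq2 and 96 in limma-voom. Against differentiated epithelium 23 became 40 with DESeq2's size factors, 426 with DESeq2, 152 with limma-voom, 76 with all 10 libraries, 7 among genes counted in every negative library (3 lower) and 4 to 258 without 1 library. Lower calls without 1 library numbered 5384 to 9049 against Lgr5 positive cells and 4836 to 8697 against differentiated epithelium. The median of all genes was -5.10 with DESeq2's size factors and -5.83 with TMMwsp. Whether replicate numbers pair the samples could not be decided. Deviations from the group mean correlated at -0.0701 to -0.0356 between negative and epithelial libraries of the same number, where sparse counts could hide a pairing. Between the epithelial first replicates the correlation was 0.373. With the replicate block 97 genes were higher than epithelium, 55 of them among the 140, 90 than Lgr5 positive cells and 65 than differentiated epithelium.

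Of the named genes called higher, 14 of 37 kept their call in every alternative, of those called lower 45 of 93, and none of either turned. Of 92 not called, 19 turned sign and passed under an alternative. The log2 fold changes below were the lowest with 1 library left out, with the highest in parentheses. Without negative replicate 2 they were -7.67 for Sesn1 (1.29), -4.71 for Mcam (8.21), -10.42 for Ret (4.74), -11.49 for Gzmb (4.21), -9.19 for Pparg (3.16), -13.92 for Smoc2 (2.80), -14.34 for Sox9 (2.30), -10.95 for Guca2a (3.80), -13.22 for Ptgs1 (2.21) and -10.08 for Ihh (1.76). Without replicate 3 they were -15.73 for Pdia4 (0.68), -6.84 for Phlda3 (6.19), -13.22 for Kit (2.00), -6.18 for Lck (3.40), -12.72 for Mcm3 (3.38) and -14.58 for Top2a (0.75), and without replicate 1 -9.67 for Apoa2 (11.03) and -13.32 for Cidec (3.35). With the block they were -15.52 for Pdia4, -13.24 for Kit, -6.25 for Lck, -12.63 for Mcm3 and -14.69 for Top2a, and with limma-voom -7.84 for Pdia4 and -7.73 for Sdhb. Depth limits a 0 in negative replicate 1 to 2.02 CPM.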

Other observations

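The highest genes of each negative library were largely different. In replicate 1 they were Alb (39966 CPM), Malat1 (10852), Sepp1 (9697), a selenium carrier of plasma, and Hba-a1 and Hba-a2 (9594 each). In replicate 2 they were Car1 (14319), a carbonic anhydrase of colon and red blood cells, Gsn (9791), Zg16 (9314), Dcn (5763) and Malat1 (5077). In replicate 3 they were Gsn (10730), Igj (10100), Cd74 (9709), the invariant chain of antigen presentation, Dcn (3333) and the class I histocompatibility gene H2-D1 (2665). Car1 had no count in negative replicate 1 and 0.137 CPM in replicate 3, against 5.25 and 2.42 CPM in Lgr5 positive cells and none in differentiated epithelium (edgeR adjusted p = 0.0949). Cd74 had 2.02 CPM in negative replicate 1 and 615 CPM in replicate 2, against 1169 and 558 CPM in Lgr5 positive cells and 10131 and 6444 CPM in differentiated epithelium.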
